A study of Mus musculus with 9 samples.

Results

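The duct epithelium of the mouse pancreas was followed through 32 genes, taken as a given list of duct keratins, transport proteins, junction proteins and related epithelial genes. All 32 were found among the 55453 gene symbols of the count files, and all 32 passed the filter on low counts that left 19166 genes for testing. The data are bulk RNA-seq of whole pancreas from e18.5 embryos, close to birth, on a mixed C57BL6 background, with 3 embryos, 1 library each, in each of 3 genotypes. Control embryos carried Pdx1:Cre alone, the second group carried Pdx1:Cre with a Grg3 mutation, and the third carried Pdx1:Cre with Grg3 and Grg4 mutations. Every embryo therefore carried the Cre recombinase, which the Pdx1 promoter drives in the pancreatic epithelium from which duct, acinar and endocrine cells arise, and not in the mesenchyme, vessels or blood of the organ. Grg3 and Grg4, encoded by Tle3 and Tle4, are Groucho proteins, co-repressors that bind transcription factors and silence their target genes.

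Pancreatic ducts are a branched tree of simple epithelium that collects acinar secretions and adds a bicarbonate-rich fluid. Duct cells draw bicarbonate in through basolateral cotransporters and carbonic anhydrase, release it at the lumen through the chloride channel Cftr and its partner exchangers, and let water follow through aquaporins and between cells sealed by claudins. In the late embryo the ducts are still growing from the trunk epithelium that also gives rise to endocrine cells, and each duct cell bears a primary cilium whose failure leads to cysts.

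Gene counts summed to between 46817453 and 62744499 per library, and the duct genes took 0.461% to 0.535% of them. Levels are given in CPM, counts per 1e6 of the library total over the genes tested, after that total was scaled by its TMM factor from edgeR. The factors were 0.868 to 0.936 in control, 0.918 to 1.16 in Grg3 and 1.05 to 1.11 in Grg3 Grg4 libraries. Tle3 went against the labels, at 63.1 to 67.7 CPM in control libraries, 145 to 167 in those labelled Grg3 and 126 to 146 in those labelled Grg3 Grg4. Tle4, labelled as mutated in the last group, was likewise not lower there, at 7.68 to 7.85, 9.83 to 13.8 and 8.63 to 15.5 CPM. The groups are therefore called by their labels, and directions hold between labels. Control replicate 1, Grg3 replicate 1 and all 3 Grg3 Grg4 libraries were male and the other 4 female, read from Xist and Y-linked genes. Grg3 Grg4 replicate 2 stood apart: the 8 listed kidney tubule markers were all highest there and summed to 663 CPM, against 5.59 to 23.0 CPM in the other 8 libraries. The 11 muscle markers were also highest there in sum, at 2469 CPM against 123 to 845 CPM in the other 8. Of the 32 members, 6 were highest of all 9 libraries in Grg3 Grg4 replicate 2 and 10 were lowest there. Kidney tubules express many duct genes, so for some genes results for that group are also given without this library. They are not given for every gene whose size it changed. All 9 libraries share 1 estimate of the spread of each gene, so this library also enters the tests of the Grg3 group.

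The duct program was present in every library. Per kilobase of exon, the control level of the secreted chaperone Clu was the highest of the list (499.8 CPM per kb), followed by osteopontin, Spp1 (271.5), the keratins Krt18 (258.6) and Krt8 (186.5), Ambp (118.8), Cldn3 (117.2), Muc1 (116.3) and E-cadherin, Cdh1 (93.2). At the other end, the chloride channel gene Cftr stood at 0.159 and the water channel gene Aqp5 at 0.115 CPM per kb. Among all genes tested, the members' median percentile by control level was 91.1, with a range from 9.38 to 99.6. Clu alone made up 26.2% to 32.6% of the summed CPM of the 32 genes. Several of the abundant members, such as Clu, Cdh1, Epcam and the simple-epithelial keratins, are also expressed by acinar or endocrine cells, so the sum is not a measure of duct cells alone.

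**Figure D1:**
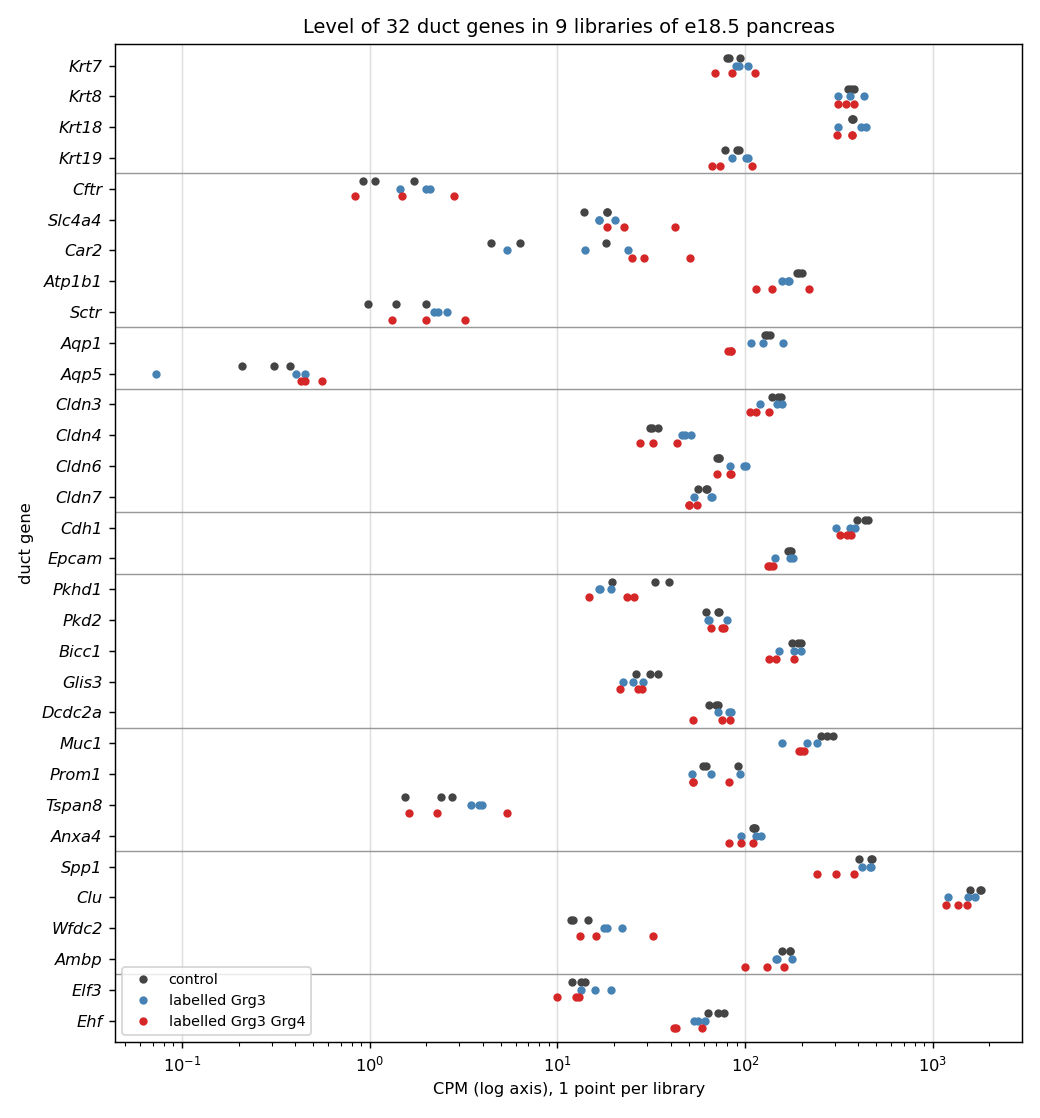
Level of each of the 32 duct genes in CPM on a log axis, with 1 point per library, coloured by the 3 groups. Clu lies highest and Aqp5 lowest, and the points of most genes lie within a 2-fold span across the 9 libraries.

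Most duct genes stayed within a 2-fold span between embryos, and the share of all genes that did so was not computed. The ratio of the highest to the lowest of the 9 libraries was under 2-fold for 24 of 32 members, with a median of 1.79, from 1.29 for the ciliary channel gene Pkd2 to 11.6 for the carbonic anhydrase gene Car2. The median coefficient of variation between replicates estimated by edgeR was 13.8% over the members and 17.8% over all genes tested. These sets were not matched by level, and the low members Cftr, Sctr, Aqp5 and Tspan8 stood at 32.8% to 44.0%.

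The comparison of libraries labelled Grg3 Grg4 with control asks what differs in the duct program where the labels name both genes as mutated. Aqp1, the water channel of duct and capillary membranes, was the only member called by edgeR, falling by 0.66 (SE 0.126) on the log2 scale, and the other 31 did not pass there. A gene was called at an adjusted p under 0.05 in the quasi-likelihood test of edgeR, with adjustment over all 19166 genes, of which 2.14% were called (0.897% as lower and 1.24% as higher). DESeq2 called 5 members (Aqp1, Epcam, Muc1, Spp1 and Ehf, all lower) and 8.1% of all genes, and limma's voom called 5 (Aqp1, Epcam, Muc1 and Ehf lower, Car2 higher) and 5.39%. The replicates of 9 members lay wholly below control and those of 3 wholly above, against 14.2% and 14.9% of all genes. The median log2 change of the 32 was -0.16, beside 0.01 over all genes, with 20 members below 0 and 12 above. An unadjusted p under 0.05 was found for 12 of 32, against 20.2% of all genes. Without Grg3 Grg4 replicate 2, Slc4a4, Cldn3, Cdh1, Clu, Wfdc2 and Ambp no longer reached this, while Atp1b1 and Pkhd1 then did. In bulk tissue, fewer duct cells and less RNA per duct cell cannot be told apart. In the same comparison all 20 acinar enzyme genes were below 0 (median log2 change -0.71, 6 called lower by edgeR), and so were 13 of 14 endocrine genes (median -0.85, 1 called lower). The part of these cell types in the levels of the duct genes was not tested.

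The comparison of libraries labelled Grg3 with control asks the same for Grg3 alone. No duct gene passed (0 of 32 by edgeR, where 1.4% of all genes were called, 0.704% higher and 0.694% lower), 6 had an unadjusted p under 0.05 (19.1% of all genes), and DESeq2 called 3 (Cldn4, Cldn6 and Pkhd1, with 7.63% of all genes) and voom 1 (Cldn6, with 2.2%). The replicates did not overlap for 10 members, 5 higher and 5 lower, against 12.6% and 12% of all genes. The members' median log2 change was 0.01, beside 0.02 over all genes. The claudins Cldn4 and Cldn6 came nearest to the threshold on the higher side and the fibrocystin gene Pkhd1 on the lower side.

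Set against each other, the groups labelled Grg3 Grg4 and Grg3 also gave no call (0 of 32 by edgeR, where 0.188% of all genes were called, 8 at an unadjusted p under 0.05 against 17.3%). DESeq2 called 3 (Aqp1, Cldn4 and Spp1, with 5.32% of all genes) and voom 0 (0.125%). Here 5 members lay wholly lower in the libraries labelled Grg3 Grg4 and 1 wholly higher, against 9.3% and 11.8% of all genes. The mean of both mutant groups against control gave 0 of 32 by edgeR, where 2.07% of all genes were called (0.882% higher and 1.19% lower), with 10 at an unadjusted p under 0.05 against 20.2%. DESeq2 called 5 there (8.27% of all genes) and voom 4 (5.27%). In all 6 libraries labelled mutant, Ehf, Muc1 and Cdh1 lay below the lowest control, and no member lay above the highest control, against 5.75% and 4.91% of all genes. Both comparisons with control share the same 3 control libraries.

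Size limits follow from the 95% intervals of the log2 change. The interval excluded a 2-fold difference in either direction for 25 of 32 members in the libraries labelled Grg3 and for 24 of 32 in those labelled Grg3 Grg4, beside 12834 and 12729 of all 19166 genes. The widest interval in both comparisons was that of Car2.

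**Figure D2:**
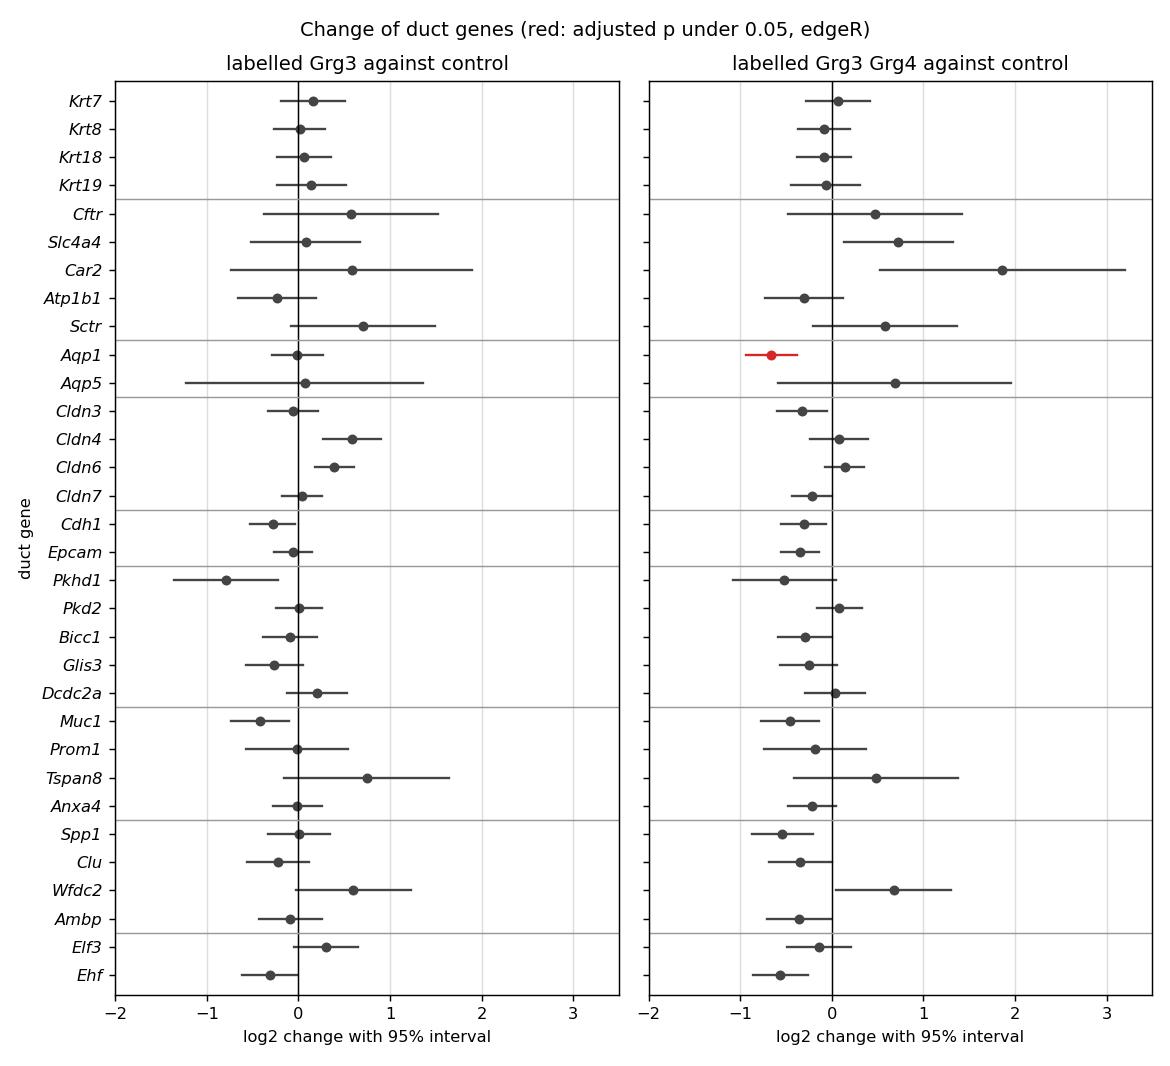
Log2 change of each duct gene against control with its 95% interval, for libraries labelled Grg3 (left) and Grg3 Grg4 (right), with n = 3 per group. Only Aqp1 in the right panel passes the adjusted threshold in edgeR, and the interval of Car2 is the widest in both panels.

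The 4 keratins of the list form the intermediate filaments of simple epithelium, and Krt7 and Krt19 are the usual stains for ducts. None was called in any of the 4 comparisons by edgeR, DESeq2 or voom, and none had an unadjusted p under 0.05 in edgeR. Krt19 was measured at 90.9, 92.7 and 78.0 CPM in control replicates 1, 2 and 3, at 84.7, 100.9 and 103 in those labelled Grg3 and at 73.8, 66.7 and 109 in those labelled Grg3 Grg4. The groups overlapped, and the interval of its log2 change was -0.23 to 0.52 for Grg3 and -0.45 to 0.31 for Grg3 Grg4, the widest among the keratins. Its change for Grg3 Grg4 was -0.07 with replicate 2 and 0.07 without it. Krt7 had intervals of -0.19 to 0.51 and -0.28 to 0.41. The abundant pair Krt8 and Krt18, partners in one filament, differed from control by 0.01 and 0.06 in the libraries labelled Grg3. In those labelled Grg3 Grg4 they differed by -0.09 and -0.08, also with overlap, and by -0.02 and 0.001 without replicate 2.

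Of the 2 water channels, Aqp1 carried the one call. Aqp1 (chromosome 6, 55336432 to 55348555, GRCm38, plus strand) stood at 127, 131 and 136 CPM in control replicates 1, 2 and 3, at 107, 159 and 124 in those labelled Grg3 and at 80.9, 84.4 and 84.4 in those labelled Grg3 Grg4. The 3 Grg3 Grg4 libraries lay close together and below all 6 others, while the Grg3 libraries lay on both sides of the controls. Against control, Aqp1 fell by 0.66 in the libraries labelled Grg3 Grg4 (95% interval -0.94 to -0.38, edgeR adjusted p = 0.0336), and its change in those labelled Grg3 was -0.01 (-0.29 to 0.27). The difference between the mutant groups themselves was -0.65 (-0.93 to -0.36) and did not pass (edgeR adjusted p = 0.0715).

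The call of Aqp1 was close to the threshold. It kept its size without Grg3 Grg4 replicate 2 (-0.67) but not its call (edgeR adjusted p = 0.0720), and the same held when any other library of the 2 groups was left out (adjusted p from 0.0661 to 0.146). All 3 Grg3 Grg4 embryos were male, and with embryo sex as a term the change was -0.51 (adjusted p = 0.174). Capillary endothelium expresses Aqp1 as well. The 12 endothelial markers summed to 1221 to 1263 CPM in control, 1119 to 1535 in Grg3 and 1004 to 1226 in Grg3 Grg4 libraries, with 10 of 12 below control in the last group and a median log2 change of -0.17. None of the 12 was called there by edgeR, DESeq2 or voom, and 1 had an unadjusted p under 0.05. Grg3 replicate 2, which had the highest Aqp1 level, also had the highest endothelial sum, and the part of endothelium in the level of Aqp1 was not tested.

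Groucho proteins act at the promoters and enhancers of genes bound by Foxa, TCF/LEF, Runx and Hes factors. RefSeq promoter windows (GRCm38.p6) matched 25 of the 32 members, with 31 start sites. The 250 bases before each start were searched on both strands for TGTTTAC (Foxa), CTTTGA (TCF/LEF), TGTGGT (Runx) and CACGTG (Hes), none of which contains another. The Foxa motif was in 1 of 31 member windows and 3.17% of all 32851 windows, TCF/LEF in 1 and 13.8%, and Hes in 1 and 6.02%. Runx was in 3 of 31 against 14.0% of all. The windows of Aqp1, the one member called, and of Spp1 and Muc1, whose Grg3 Grg4 libraries lay wholly below control, are shown 5′ to 3′ on the plus strand, with any match in capitals.
Aqp1, chr6:55336049-55336298: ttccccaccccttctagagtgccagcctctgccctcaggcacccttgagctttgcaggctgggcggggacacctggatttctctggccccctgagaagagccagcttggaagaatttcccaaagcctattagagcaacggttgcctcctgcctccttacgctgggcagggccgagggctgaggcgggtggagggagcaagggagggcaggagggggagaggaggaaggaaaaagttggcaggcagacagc
Spp1, chr5:104434861-104435110: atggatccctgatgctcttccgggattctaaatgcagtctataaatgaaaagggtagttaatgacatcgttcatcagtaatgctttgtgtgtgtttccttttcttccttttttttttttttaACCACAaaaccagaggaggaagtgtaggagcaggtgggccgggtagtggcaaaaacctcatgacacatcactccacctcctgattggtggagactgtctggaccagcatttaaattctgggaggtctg
Muc1, chr3:89228806-89229055: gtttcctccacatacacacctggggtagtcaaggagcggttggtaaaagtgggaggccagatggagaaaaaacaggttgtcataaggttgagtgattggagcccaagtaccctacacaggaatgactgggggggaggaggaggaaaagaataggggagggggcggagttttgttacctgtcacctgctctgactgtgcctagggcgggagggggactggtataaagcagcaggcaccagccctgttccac
Spp1 has 2 windows, and of those free of its own exons the one with most motif matches was picked to be shown. It holds ACCACA, the Runx core read on the other strand, starting 128 bases before the start site. The windows of Aqp1 and Muc1 hold none of the 4 motifs. A match is a match of letters only.

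The other water channel, Aqp5, sits in the apical membrane of secretory epithelia and was near the limit of detection, with 4 counts in the lowest library. It stood at 0.209, 0.377 and 0.308 CPM in control, 0.0731, 0.453 and 0.405 in Grg3 and 0.451, 0.559 and 0.429 in Grg3 Grg4 libraries. All 3 Grg3 Grg4 libraries lay above control, yet the interval of the log2 change, -0.59 to 1.96, was too wide to place it.

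The transport genes make and move bicarbonate. Slc4a4, the basolateral sodium bicarbonate cotransporter, was measured at 13.9, 18.4 and 18.3 CPM in control, 16.6, 20.2 and 16.6 in Grg3 and 18.4, 42.4 and 22.6 in Grg3 Grg4 libraries. The high value belongs to Grg3 Grg4 replicate 2, the library with kidney genes. Its log2 change in that group was 0.72 (edgeR adjusted p = 0.171) with this library and 0.28 (adjusted p = 0.445) without it.

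Atp1b1, a beta subunit of the sodium pump, was also highest of all 9 in this library, while the other Grg3 Grg4 libraries lay below control. It stood at 200, 193 and 190 CPM in control, 169, 170 and 157 in Grg3 and 115, 218 and 139 in Grg3 Grg4 libraries. Every library but Grg3 Grg4 replicate 2 that was labelled mutant lay below all controls. The change of -0.30 in the Grg3 Grg4 group (edgeR adjusted p = 0.411) became -0.62 without that library, which passed (adjusted p = 0.0373) and was then the only call among the 32. With control replicate 1 left out too, it was -0.59 and did not pass (adjusted p = 0.108). On the opposite strand, Nme7 overlaps part of the exons of Atp1b1, 18.7% of their bases counted over all overlapping genes, and the sources used here do not say whether reads were counted by strand.

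Cftr, the apical chloride and bicarbonate channel mutated in cystic fibrosis, was low, at 1.71, 1.07 and 0.924 CPM in control, 1.44, 2.09 and 1.99 in Grg3 and 0.829, 2.79 and 1.49 in Grg3 Grg4 libraries. Its highest and lowest values over all 9 libraries both fell in the Grg3 Grg4 group, and its log2 change there was 0.47 (-0.48 to 1.42), or -0.10 without replicate 2. Sctr, the receptor for the hormone secretin that drives duct secretion, stood at 0.981, 1.99 and 1.39 CPM in control, 2.32, 2.58 and 2.21 in Grg3 and 1.32, 1.999 and 3.20 in Grg3 Grg4 libraries. The Grg3 libraries lay above all controls without passing (log2 change 0.71, -0.08 to 1.49, edgeR adjusted p = 0.310).

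Car2, the cytosolic carbonic anhydrase that supplies bicarbonate in duct cells and is abundant in red cells, had the largest spread of the list. It stood at 6.28, 4.40 and 18.2 CPM in control, 23.8, 5.35 and 14.0 in Grg3 and 50.9, 28.9 and 25.0 in Grg3 Grg4 libraries. All 3 Grg3 Grg4 libraries lay above the other 6, and the log2 change against control was 1.86 (0.52 to 3.20), which did not pass (edgeR adjusted p = 0.127). It passed by voom (adjusted p = 0.0419) and in edgeR with no filter on low counts (0.0308). The red cell anion exchanger gene Slc4a1, named here after its values were seen, stood at 8.41, 3.85 and 39.2 CPM in control, 52.4, 5.63 and 14.7 in Grg3 and 80.1, 36.7 and 58.9 in Grg3 Grg4 libraries. Within control and within Grg3 the libraries rank in the same order for both genes, and Grg3 Grg4 replicate 1 is the highest of all 9 for both. The 9 erythroid markers measured, globins included, summed to 2056, 1698 and 1675 CPM in control, 3390, 2591 and 1934 in Grg3 and 3414, 1702 and 1726 in Grg3 Grg4 libraries. By this sum control replicate 3, the highest control for Car2 and Slc4a1, was the lowest control, and Grg3 Grg4 replicates 2 and 3 lay within the control range. Gene by gene, all 9 erythroid markers had a log2 change above 0 against control, with a median of 0.96 in Grg3 Grg4 and 0.50 in Grg3 libraries. None of the 9 was called by edgeR, DESeq2 or voom in the Grg3 Grg4 comparison, and 3 had an unadjusted p under 0.05, against 20.2% of all genes. The part of red cells in the level of Car2 was not tested.

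**Figure D3:**
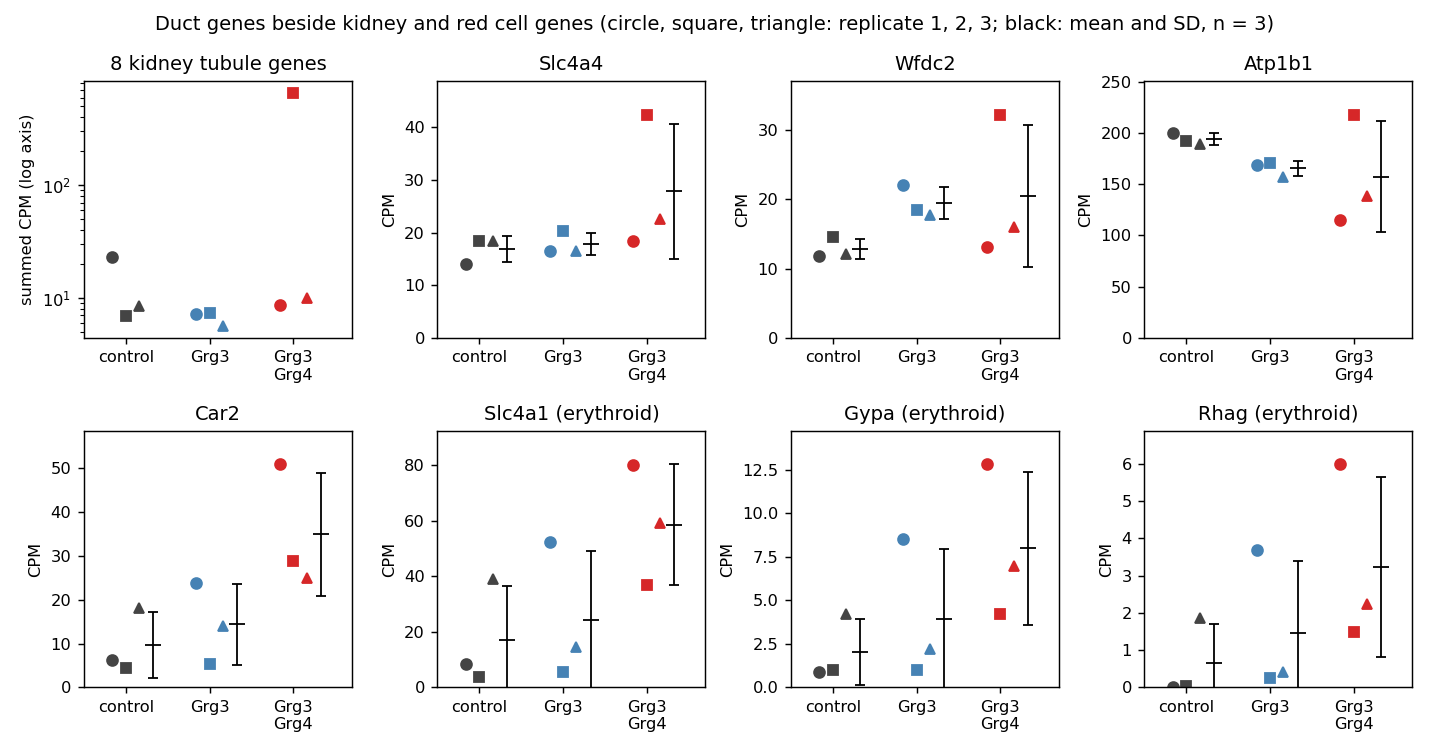
Level by library of duct genes beside markers of kidney tubule and red cells, in CPM, with 1 symbol per replicate number, the mean and SD (n = 3) in black with bars cut at 0, and the kidney sum on a log axis with no mean. Grg3 Grg4 replicate 2 is the high library for the kidney genes and for Slc4a4, and Car2 and Slc4a1 are both highest in Grg3 Grg4 replicate 1.

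Claudins set which ions pass between duct cells. Cldn4 stood at 31.0, 34.3 and 31.98 CPM in control, 46.3, 48.0 and 51.4 in Grg3 and 27.4, 32.1 and 43.3 in Grg3 Grg4 libraries. The 3 Grg3 libraries were the highest of all 9 for this gene. Its log2 change in the Grg3 group was 0.58 (0.26 to 0.90), just short of the threshold (edgeR adjusted p = 0.0777), and it passed by DESeq2 (adjusted p = 0.00776) and in edgeR with no filter (0.0240), with only the groups compared (0.0207) and without Grg3 Grg4 replicate 3 (0.0269). The difference between Grg3 Grg4 and Grg3 was -0.50 (adjusted p = 0.135).

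Cldn6, a claudin of embryonic epithelia (chromosome 17, 23679249 to 23682446, GRCm38, plus strand), stood at 72.1, 72.5 and 70.5 CPM in control, 98.7, 82.7 and 100.6 in Grg3 and 70.6, 83.8 and 82.6 in Grg3 Grg4 libraries. The controls lay close together, below every Grg3 library. Its log2 change was 0.39 (0.18 to 0.61, edgeR adjusted p = 0.0777) for Grg3 and 0.14 (-0.07 to 0.35) for Grg3 Grg4. Without Grg3 replicate 2, the lowest of its group, the first passed (adjusted p = 0.0317), and on all libraries it passed by DESeq2 (0.0122) and voom (0.0375).

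Cldn3 and Cldn7, claudins found throughout gut and duct epithelium, lay wholly below control in the Grg3 Grg4 group. Cldn3 stood at 150, 154 and 139 CPM in control, 148, 120 and 157 in Grg3 and 114, 106 and 134 in Grg3 Grg4 libraries, a log2 change of -0.32 (edgeR adjusted p = 0.179) in the last group. Cldn7 ranged from 56.2 to 62.3 CPM in control, 53.4 to 66.8 in Grg3 and 50.0 to 55.4 in Grg3 Grg4 libraries, a log2 change of -0.21 (adjusted p = 0.254). Neither passed, and in the Grg3 group both overlapped control. All 4 claudins had a log2 difference below 0 between Grg3 Grg4 and Grg3, from -0.50 to -0.25, with none called by edgeR, 3 at an unadjusted p under 0.05, Cldn4 called by DESeq2 and none by voom.

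The adhesion genes Cdh1, the E-cadherin of adherens junctions, and Epcam, a surface protein of simple epithelia, are shared by all pancreatic epithelial cells. Cdh1 stood at 393, 435 and 450 CPM in control, 385, 306 and 362 in Grg3 and 349, 320 and 366 in Grg3 Grg4 libraries. All 6 mutant-labelled libraries lay below the lowest control, Grg3 replicate 1 only narrowly, and the log2 change was -0.28 (-0.53 to -0.03) for Grg3 and -0.31 (-0.55 to -0.06) for Grg3 Grg4, neither called (edgeR adjusted p = 0.209 and 0.163).

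Epcam stood at 169, 173 and 176 CPM in control, 179, 143 and 173 in Grg3 and 132, 136 and 140 in Grg3 Grg4 libraries. The Grg3 Grg4 libraries lay below all 6 others, a log2 change of -0.34 (-0.55 to -0.14) that did not pass (edgeR adjusted p = 0.0857) except in the fit without Grg3 replicate 2 (adjusted p = 0.0227), by DESeq2, by voom and with only the groups compared. Grg3 replicate 2, the low Grg3 library for both genes, also had the lowest sum of 20 acinar enzyme genes, 204739 CPM against 301157 and 388857 in Grg3 replicates 1 and 3. Acinar sums were 380377 to 436095 CPM in control and 248017 to 282645 in Grg3 Grg4 libraries, and the part of acinar cells in the levels of Cdh1 and Epcam was not tested.

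Genes of the primary cilium and of cystic disease included one near call. Pkhd1, which encodes fibrocystin and is mutated in recessive polycystic disease, stood at 19.5, 33.0 and 39.0 CPM in control, 16.5, 16.9 and 19.2 in Grg3 and 14.8, 25.7 and 23.4 in Grg3 Grg4 libraries. Control replicate 1 was far below the other 2 controls and only just above the Grg3 libraries. The log2 change was -0.80 (-1.36 to -0.23, edgeR adjusted p = 0.136) for Grg3 and -0.52 (-1.08 to 0.05, adjusted p = 0.286) for Grg3 Grg4. By DESeq2 the first passed (adjusted p = 0.0254), and in edgeR it did not pass when any single library was left out. It passed in edgeR without control replicate 1 and Grg3 Grg4 replicate 2 together (-1.04, -1.45 to -0.62, adjusted p = 0.0386). There Pkhd1 was also called for the mean of both mutant groups. That pair of libraries was chosen after seeing the data.

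The other cystic genes overlapped between groups. Pkd2, a calcium-permeable channel of the cilium, ranged from 61.5 to 79.5 CPM over all 9 libraries, with changes of 0.01 and 0.08. Bicc1, an RNA-binding protein of cilium-linked signalling, ranged from 134 to 199 CPM, with log2 changes of -0.10 and -0.30 (edgeR adjusted p = 0.248 for the second). Leaving out Grg3 Grg4 replicate 2 made the second -0.20. Glis3, a zinc finger factor linked to cysts and to beta cell development, ranged from 21.6 to 34.1 CPM, with changes of -0.26 and -0.25. Dcdc2a, a microtubule-binding protein of the cilium, ranged from 52.8 to 83.6 CPM, with changes of 0.20 and 0.04.

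At the apical surface, Muc1, the membrane mucin that lines the lumen (chromosome 3, 89229057 to 89233381, GRCm38, plus strand), stood at 273, 293 and 252 CPM in control, 213, 158 and 243 in Grg3 and 206, 194 and 198 in Grg3 Grg4 libraries. Every mutant-labelled library lay below the lowest control. The log2 change was -0.42 (-0.73 to -0.10) for Grg3, -0.45 (-0.77 to -0.14) for Grg3 Grg4 and -0.44 (-0.70 to -0.17) for their mean, with edgeR adjusted p of 0.151, 0.117 and 0.0913. The last 2 passed by DESeq2 (adjusted p = 0.0304 and 0.0130), by voom (0.0357 and 0.0329) and in edgeR without Grg3 replicate 2 (0.0251 and 0.0408), the lowest of its group. The change in Grg3 Grg4 also passed with only the groups compared (0.0235). Neither passed in edgeR with embryo sex as a term or when any other single library was left out. Leaving out Grg3 Grg4 replicate 2 gave -0.43 for both (edgeR adjusted p = 0.262 and 0.129). Acinar cells also carry Muc1, and their part in its level was not tested.

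Tspan8, a membrane tetraspanin, stood at 2.40, 1.55 and 2.75 CPM in control, 3.97, 3.46 and 3.81 in Grg3 and 1.62, 5.41 and 2.29 in Grg3 Grg4 libraries. The Grg3 libraries lay above control (log2 change 0.75, -0.15 to 1.64), and the library with kidney genes was the highest of all. Its change in the Grg3 Grg4 group was 0.48 with replicate 2 and -0.19 without it. Prom1, a protein of apical protrusions, varied within every group, from 59.8 to 91.3, 52.1 to 93.3 and 52.6 to 82.2 CPM in control, Grg3 and Grg3 Grg4 libraries. Anxa4, a calcium-dependent membrane-binding protein, ranged from 81.9 to 121 CPM over the 9 libraries, with changes of -0.01 and -0.22. Without Grg3 Grg4 replicate 2 the second was -0.12.

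Among secreted proteins, Spp1 is the glycoprotein osteopontin (chromosome 5, 104435118 to 104441050, GRCm38, plus strand), and 1 of its 2 promoter windows is printed with that of Aqp1. Spp1 stood at 471, 402 and 470 CPM in control, 465, 464 and 420 in Grg3 and 306, 241 and 377 in Grg3 Grg4 libraries. The Grg3 Grg4 libraries lay below all 6 others, while the Grg3 libraries lay within the control range. The log2 change was -0.54 (-0.88 to -0.20) for Grg3 Grg4 against control and -0.55 (-0.89 to -0.21) against Grg3, with edgeR adjusted p of 0.0922 and 0.131. Both passed by DESeq2 (adjusted p = 0.00913 and 0.0128). Without replicate 2, the lowest library, the change against control was -0.39 (adjusted p = 0.213), and without replicate 3, the highest, it passed (edgeR adjusted p = 0.0458). Exons of the neighbour Gm42793 on the same strand overlap 18.8% of the exon bases of Spp1.

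Clu, the chaperone clusterin, stood at 1769.8, 1807 and 1577 CPM in control, 1542, 1195 and 1683 in Grg3 and 1366, 1177 and 1521 in Grg3 Grg4 libraries. Only the Grg3 Grg4 libraries lay wholly below control (log2 change -0.34, edgeR adjusted p = 0.247). Leaving out replicate 2 of that group made the change of Clu -0.25 (edgeR adjusted p = 0.536). Ambp, which encodes the alpha-1-microglobulin and bikunin precursor and is made in quantity by liver, ranged from 157 to 173 CPM in control, 146 to 178 in Grg3 and 99.9 to 161 in Grg3 Grg4 libraries. Its log2 change was -0.36 in the last group (adjusted p = 0.234), and -0.20 without replicate 2 of that group (adjusted p = 0.523). The 12 hepatocyte markers, of which edgeR called 9 higher in each mutant-labelled group, summed to 213 to 228 CPM in control, 365 to 1814 in Grg3 and 835 to 2038 in Grg3 Grg4 libraries, and their part in the level of Ambp was not tested.

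Wfdc2, a secreted protein of the whey acidic protein family, stood at 11.8, 14.6 and 12.1 CPM in control, 22.1, 18.45 and 17.8 in Grg3 and 13.2, 32.3 and 16.0 in Grg3 Grg4 libraries. All 3 Grg3 libraries lay above control (log2 change 0.60, edgeR adjusted p = 0.284), and Grg3 Grg4 replicate 2 was the highest of the 9. In the fit without that library, the change for Grg3 was again 0.60 (0.30 to 0.89), just short of the threshold (edgeR adjusted p = 0.0528). In the Grg3 Grg4 group the change was 0.68 with that library and 0.18 without it.

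The list holds 2 transcription factors, Ehf and Elf3, both ETS factors of epithelia. Ehf stood at 63.2, 71.8 and 77.0 CPM in control, 53.3, 61.2 and 55.8 in Grg3 and 42.7, 41.9 and 58.8 in Grg3 Grg4 libraries. All 6 mutant-labelled libraries lay below the lowest control. The log2 change was -0.32 (-0.61 to -0.02) for Grg3, -0.56 (-0.86 to -0.27) for Grg3 Grg4 and -0.44 (-0.69 to -0.19) for their mean, the last 2 short of the threshold (edgeR adjusted p = 0.0615 and 0.0787). Without Grg3 Grg4 replicate 3, the highest of its group, both passed (edgeR adjusted p = 0.0186 and 0.0202). On all libraries they passed by DESeq2 (0.00424 and 0.0123), by voom (0.0308 and 0.0368) and in edgeR with no filter (0.0181 and 0.0339). Leaving out Grg3 Grg4 replicate 2 gave -0.48 and -0.40, and neither passed (edgeR adjusted p = 0.159 and 0.109). Nor did either pass in edgeR with embryo sex as a term or when any single control was left out. Elf3 stood at 11.9, 14.1 and 13.3 CPM in control, 15.9, 13.3 and 19.4 in Grg3 and 9.95, 13.1 and 12.5 in Grg3 Grg4 libraries. Grg3 Grg4 lay wholly below Grg3 (log2 difference -0.45, adjusted p = 0.195), and both overlapped control.

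**Figure D4:**
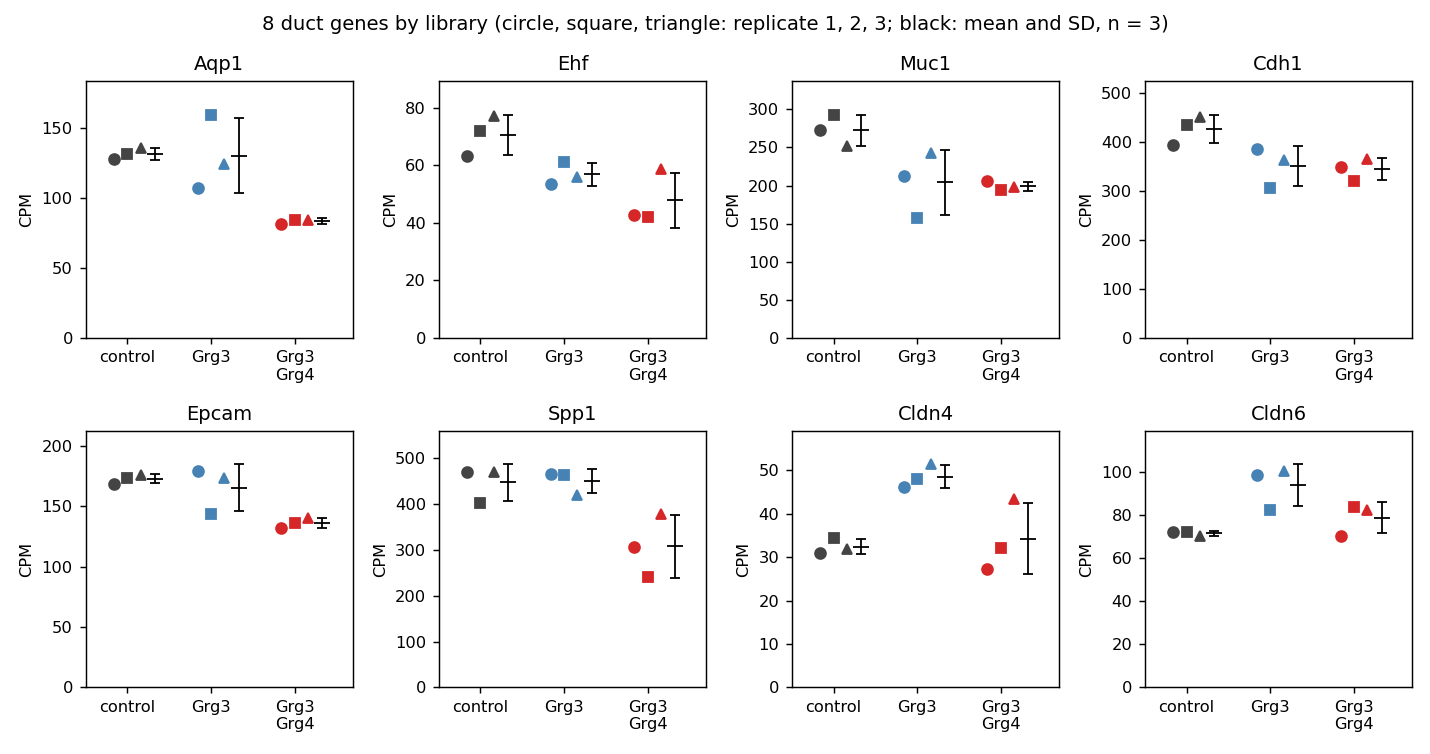
CPM of 8 duct genes by library, with 1 symbol per replicate number and the mean and SD (n = 3) in black. The 3 Grg3 Grg4 values of Aqp1, from 80.9 to 84.4 CPM, lie below the other 6, and Grg3 lies highest for Cldn4.

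Beyond the 32, 90 genes of 5 related duct lists were counted, and 89 were tested. In the libraries labelled Grg3, 1 was called higher and 2 lower, and in those labelled Grg3 Grg4, 3 higher and 2 lower, beside 1.4% and 2.14% of all genes. Between the mutant groups edgeR called 0 of 89, with 19 at an unadjusted p under 0.05, 6 called by DESeq2 and 0 by voom. The shares of all genes there were 0.188%, 17.3%, 5.32% and 0.125%. In the mean of both groups against control edgeR called 1 higher and 2 lower, beside 0.882% and 1.19% of all genes. The median log2 change of these genes against control was -0.06 and -0.05.

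None of the 12 other duct transcription factors was called by edgeR against control in either group, or by voom. In the Grg3 and Grg3 Grg4 groups 1 and 3 had an unadjusted p under 0.05, against 19.1% and 20.2% of all genes. DESeq2 called 1 and 0, against 7.63% and 8.1%. Sox9, which marks duct and trunk progenitor cells, stood at 100.8 to 106 CPM in control, 93.8 to 102 in Grg3 and 72.5 to 111 in Grg3 Grg4 libraries, with changes of -0.10 and -0.20.

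Of 20 other tight junction genes, 2 fell in the libraries labelled Grg3, and 1 rose and 1 fell in those labelled Grg3 Grg4. Cldn9 lies beside Cldn6 on the opposite strand (chromosome 17, 23682584 to 23684026) and went the other way from it. Cldn9 stood at 22.1, 27.3 and 26.6 CPM in control, 13.4, 11.5 and 17.4 in Grg3 and 12.7, 15.4 and 14.5 in Grg3 Grg4 libraries, and fell by 0.85 and 0.83 (edgeR adjusted p = 0.0352 and 0.0318). All 6 mutant-labelled libraries lay below control, and both calls were lost without control replicate 2 (adjusted p = 0.147 and 0.154). Tjp1, the scaffold protein ZO-1, fell by 0.46 in the libraries labelled Grg3 (adjusted p = 0.0384), and by 0.44 without control replicate 2, where it did not pass (adjusted p = 0.162). Cldn1 rose by 2.01 in those labelled Grg3 Grg4 (adjusted p = 0.0306), from 2.07 to 2.60 CPM in control to 6.87, 13.8 and 7.63 CPM, and without replicate 2 its change was 1.63 and did not pass (adjusted p = 0.0588).

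Of 18 other transport genes, Slc26a3 was called in both groups. This chloride and bicarbonate exchanger, best known from the intestine and also found in ducts, had 8 counts over the 3 controls, 225 over the libraries labelled Grg3 and 156 over those labelled Grg3 Grg4. The ratio to control, scaled for library size, was 22.4 (95% counting interval 11.2 to 52.6) and 15.9 (7.90 to 37.6), and the call held in every alternative tried in both comparisons. Its level stayed low, at 0.837 to 1.33 CPM in the mutant-labelled libraries. Of 14 stomach and intestine markers 8 could be tested, and edgeR called 3 higher in Grg3 and 1 in Grg3 Grg4. The 14 summed to 49.8 to 53.0 CPM in control, 39.8 to 74.7 in Grg3 and 51.3 to 59.1 in Grg3 Grg4 libraries, and their part in the level of Slc26a3 was not tested.

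Of 16 other cilium and cystic disease genes, Anks3, an ankyrin repeat protein of the cilium, rose by 0.40 in the libraries labelled Grg3 Grg4 (edgeR adjusted p = 0.0484), without replicate 2 by a value of 0.36 that did not pass (adjusted p = 0.131). Of 24 other epithelial genes, the keratin gene Krt23 fell in the Grg3 Grg4 group, by 1.35 (adjusted p = 0.0135), from 10.2, 10.3 and 8.80 CPM in control to 3.14, 3.78 and 4.55 CPM there. In the libraries labelled Grg3 it stood at 5.83, 5.56 and 3.73 CPM, with a log2 difference of -0.95 from control (adjusted p = 0.0511). All 6 lay below control, and the call was lost without any 1 control (adjusted p from 0.0541 to 0.0816).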

How the data were processed

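Whole-number read counts per gene symbol were deposited for each library, without scaling. Trim Galore, FastQC, HISAT2, HTSeq, bedtools and DESeq2 are listed in the submitters' processing notes, as are the builds GRCm38 and mm10. Versions, annotation and strand setting were not given in the sources available. Rows that name no gene held 28.5% to 33.2% of reads, of which reads aligned to several places were 15.8% to 20.7% of all reads, and stayed out of library sizes and tests. No 2 replicates agreed within sampling noise.

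After TMM scaling, edgeR 4.0.16 (R 4.3.3) tested each gene by its 2-sided quasi-likelihood F test, keeping genes by filterByExpr (minimum count 10, minimum total 15). One model held all 9 libraries, with 1 mean per genotype. P-values were adjusted by Benjamini-Hochberg over all genes tested, and calls were made under 0.05. The SE is the log2 change over the root of F, without sign. CPM are counts per 1e6 of the TMM-scaled library total over the genes tested, and CPM per kb divides by the merged exon length of GENCODE M21. Whether groups overlapped was read from these scaled levels. Counting intervals cover counting error only. On simulated data, drawn with the fitted spread of each gene, the test recovered 66% of genes changed by 2-fold for Grg3 against control and 70% for Grg3 Grg4 against control. Only genes with a control mean of at least 1 CPM were changed, so the rates do not cover lower genes such as Aqp5. Of the genes called on those data, 5.26% and 8.74% were genes that had not been changed. Alternatives were scaling, filters, tools (DESeq2 1.42.0, limma 3.58.1), a sex term, a replicate block, fewer libraries and leaving out acinar enzyme genes. All 32 members were named, and from the other duct lists those called, up to 5 a list, and 1 listed gene is not reported here. Members and lists were chosen with earlier results of these data known. One pair of left-out libraries was added after seeing the data.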

Additional observations from a re-analysis of the deposited data

How the results depend on the processing

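The number of duct genes called against control in the libraries labelled Grg3 (0 by edgeR) was 1 with no filter, 1 with only the groups compared, 3 by DESeq2, 1 by voom, 0 to 1 when 1 library was left out and 1 without control replicate 1 and Grg3 Grg4 replicate 2 together. For Grg3 Grg4 (1, Aqp1) it was 3 with no filter, 3 with only the groups compared, 5 by DESeq2, 5 by voom, 0 with embryo sex as a term, 0 to 3 with 1 library left out and 0 without both libraries. Between the mutant groups (0) it was 1 with no filter and 3 by DESeq2, and 0 with any 1 library left out. For the mean of both groups (0) it was 1 with no filter, 5 by DESeq2, 4 by voom, 0 to 3 with 1 library left out and 1 without both libraries. The cause of these differences was not tested. Aqp1 kept its call in 11 of 19 alternatives, with a log2 change from -0.69 to -0.51 and an adjusted p from 8.36e-05 to 0.174. No called member changed sign, while 13, 8, 12 and 6 uncalled members did so in at least 1 alternative of the 4 comparisons. Over all genes, 268, 410, 36 and 397 were called in the 4 comparisons, against 1463, 1553, 1019 and 1585 by DESeq2, 586 and 930 in the first pair with no filter, and 169 and 30 with embryo sex as a term. Without control replicate 3, 32 and 50 were called in the first pair. No pairing by replicate number was seen. Same-numbered libraries deviated together with a correlation of -0.0858 to 0.0940 (median 0.026), and libraries of other numbers with one of -0.148 to 0.165 (median -0.018). Shared litters or batches were not tested. With the number as a replicate block the counts of duct genes were 0, 1, 0 and 0, with 167, 254, 11 and 292 of all genes. Depth limits the rarest member, Aqp5, which had 42 counts over the 3 controls.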
